A study of Homo sapiens with 12 samples.

Results

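The genes described here mostly encode core proteins of the spliceosome. They were chosen by symbol, as every gene in the expression table named SNRP, SF3A, SF3B, PRPF or LSM followed by the letters or digits of a family member, and 46 of the 25268 listed genes met that rule. The rule itself uses no measured value. It also takes in LSM10 and LSM11 of the U7 particle, which processes histone mRNA, and LSM12, which was grouped with them. LSM1, which serves mRNA decapping, and the pseudogene SNRPD2P2 met it as well. RNA was measured in HEK293 cells, a human embryonic kidney line, transfected with 2 µg of either pCMV6-HIS-HA-RBMX, which drives tagged RBMX from a CMV promoter, or the mock empty vector. RBMX is an RNA-binding protein of the hnRNP family that takes part in splicing. Transfection was transient, so the cells of a dish need not all carry the plasmid, and RNA was extracted after 48 h. All cultures received cycloheximide, which holds ribosomes on mRNA, and nuclei were spun out before a sucrose gradient. Polysomal RNA came from the fractions that hold several ribosomes per mRNA, and total RNA was a pool of a fixed share of every fraction, so total RNA here is what stayed in the supernatant once nuclei were spun out. The nuclear RNA NEAT1 was still listed at 97.2 to 183 FPKM in the total libraries. There were 3 cultures per vector, each with 1 total and 1 polysomal library from 500 ng of RNA, giving 4 groups of 3 and 12 libraries. The labels call the empty-vector cells wild type, and they are called control here. Both vectors share the HEK293 background and the Lipofectamine transfection, and no untransfected cells are in the design.

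The spliceosome removes introns from pre-mRNA and is built from small nuclear RNAs wrapped in proteins, the snRNPs. Sm proteins form a ring around the U1, U2, U4 and U5 RNAs, and a related Lsm ring binds U6. SF3a and SF3b make up most of the U2 particle and hold the branch site, while several PRPF proteins belong to the U4/U6.U5 tri-snRNP that joins before splicing is activated. All of these proteins are made on cytoplasmic polysomes and imported to the nucleus, so their mRNAs can be read in both fractions.

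Expression was given as FPKM, a count of sequenced fragments divided by transcript length and by library size, so that levels of different genes can be compared. The depth behind these values is unknown, because the table holds no counts. RBMX itself, the check of the labels, lay between 87.4 and 148 FPKM in the 6 control libraries and between 1072 and 2073 FPKM in the 6 RBMX libraries. Of the HEK293 markers, LIN28B lay between 26.3 and 34.8 FPKM, and PAX2 was lowest, between 2.49 and 8.80 FPKM. NEFM lay between 10.7 and 27.1 FPKM and NEFL between 33.0 and 52.6 FPKM. The ranges were 63.4 to 188 FPKM for KRT8, 65.3 to 140 for KRT18 and 217 to 577 for VIM. The markers PTPRC, HBB, ALB, PECAM1 and COL1A2 of other cells were at or under 0.226 FPKM in every library, whereas CD68 was 4.98 to 5.68 FPKM in control libraries and 7.58 to 32.1 FPKM in RBMX libraries. Genes of the interferon response also separated the vectors. All 8 had higher values in each RBMX library than in any control library of the same fraction. Of all genes, 11.9% were higher without overlap in total and 10% in polysomal RNA. The median log2 fold change of the 8 was 2.39 in total and 2.31 in polysomal RNA. None of the 8 passed the adjusted test, beside 0.164% of all genes in total and 0.0477% in polysomal RNA. The summed level of the 8 was 641 to 1114 FPKM in control and 1998 to 5952 FPKM in RBMX total RNA. IFIT1, an interferon-induced protein, was at 475, 559 and 132 FPKM in total RNA of RBMX cultures 1, 2 and 3. The part of this response in the comparisons of the vectors was not tested.

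Of the 46 genes, 44 had a mean of at least 0.5 FPKM over the 12 libraries and were tested among 14676 genes. The other 2 were SNRPN and SNRPD2P2. SNRPN, a paralog of the Sm protein gene SNRPB, was listed at 0 in all 12 libraries. A listed 0 can also be a failed estimate, and the table does not tell the 2 apart. SNURF, which shares its locus, was listed at 0 in 11 of them and at 0.0720 FPKM in polysomal RNA of control culture 1. In the GENCODE annotation, exons of SNRPN overlap those of SNURF, SNHG14 and AC124312.1 on the same strand, so reads may be shared. The part of this overlap in the listed 0 was not tested. SNRPD2P2, a pseudogene of SNRPD2, was listed at 0 in 8 libraries and reached at most 0.0491 FPKM.

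The start of the coding sequence of SNRPB and SNRPN is shown because these paralogs encode nearly the same protein, and the table gave one of them high values and the other 0. SNRPB lies at chr20:2461634-2470853 on the minus strand and SNRPN at chr15:24823637-24978723 on the plus strand (GRCh38, GENCODE, not the build of the expression table). The first 30 coding bases are given 5′ to 3′, with capitals at the 3 positions where they differ.
SNRPB: atgacGgtGggcaagagCagcaagatgctg
SNRPN: atgacTgtTggcaagagTagcaagatgctg
Over 693 aligned coding bases, 568 were identical (82.0%), and the longest run without a difference was 32 bases. The reads were 100 bases long, and none of the 621 stretches of that length in the SNRPN coding sequence occurred in that of SNRPB.

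The 44 tested genes were mostly abundant. Their median in control total RNA was 59.5 FPKM, against 11.7 FPKM over all genes tested, and 40 of the 44 lay above the latter. The highest exceeded the lowest by 205-fold.

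Members of a single particle were not at equal levels. Among the Sm ring genes, SNRPD2 had 764 ± 71.7 FPKM (SD, n = 3) in control total RNA and SNRPE had 41.2 ± 5.20, a ratio of 18.6, although the proteins assemble in equal numbers. SNRPB followed SNRPD2 with 633 ± 26.3 FPKM. In the Lsm ring the range ran from LSM3 with 332 ± 60.5 FPKM to LSM8 with 9.29 ± 0.726, a ratio of 35.8. GENCODE names 4 pseudogenes for LSM3, and its exons overlap those of XPC on the other strand, so its reads may be shared. LSM8 is the subunit that sets the nuclear U6 ring apart from the cytoplasmic ring, which carries LSM1 in its place and serves mRNA decapping. LSM1 had 45.9 ± 3.96 FPKM.

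Among the proteins particular to U1 and U2, SNRPC of U1 was highest with 168 ± 8.69 FPKM and SNRPA1 of U2 lowest with 24.3 ± 1.91. GENCODE names 18 pseudogenes for SNRPC and 9 for SNRPE, so reads of these may be shared. The 3 SF3a genes lay close together, from SF3A1 with 51.3 ± 17.0 FPKM to SF3A2 with 67.7 ± 17.0. The 6 SF3b genes spread 11.7-fold, from the small subunit SF3B5 with 279.7 ± 13.2 FPKM to SF3B3 with 23.9 ± 4.24. Of the tri-snRNP genes, PRPF31 was highest with 84.0 ± 8.49 FPKM and PRPF3 lowest with 20.9 ± 0.632, both of them proteins of the U4/U6 particle. Of the other PRPF genes, PRPF19, the ubiquitin ligase of the complex that stabilizes the activated spliceosome, had 97.2 ± 31.2 FPKM and PRPF40B had 3.72 ± 0.240. LSM10 and LSM11, which replace Sm proteins in the U7 particle of histone mRNA processing, had 67.1 ± 5.31 and 5.55 ± 0.389 FPKM.

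**Figure D1:**
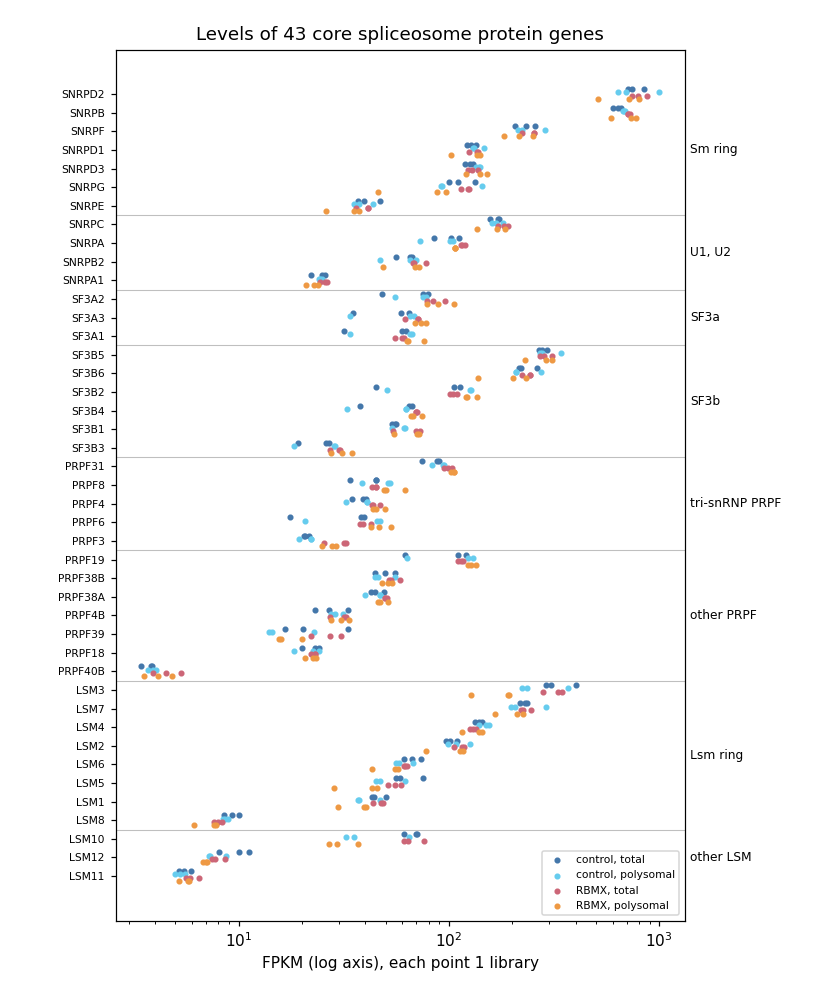
FPKM of 43 of the 44 tested genes on a log axis, 1 point per library, coloured by group and ordered by class. SNRPD2 and SNRPB lie at the top of the range and PRPF40B and LSM11 at the bottom.

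Several of these genes set a few libraries apart, and this bears on each comparison. Both libraries of control culture 3 differed from cultures 1 and 2. SF3B2, a U2 subunit that contacts RNA near the branch site, had 106, 113 and 45.2 FPKM in total RNA of control cultures 1 to 3, and 126, 127 and 50.8 FPKM in polysomal RNA. PRPF6, a scaffold of the tri-snRNP, had 39.7, 38.1 and 17.6 FPKM in total and 45.3, 47.2 and 20.6 in polysomal RNA. Culture 3 was thus lower in both fractions for each gene.

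In total RNA of control culture 3, 8 of the 44 genes differed by over 0.5 log2 units from the mean of the other 2 cultures. SF3B2, PRPF6, SF3A1, PRPF19, SF3A3, SF3B4 and SF3A2 were lower and PRPF39, a U1-associated protein, was higher, at 33.3 FPKM against 20.2 and 16.6. In polysomal RNA 15 genes did so. Among them SNRPD2, SNRPG, LSM3, LSM7, LSM10 and PRPF39 were higher there, while SF3B2, PRPF6, PRPF19, SF3A3, SF3A1, SF3B4, SF3B3 and SNRPB2 were lower. Of the 7 HEK293 markers, 6 were lowest in total RNA of control culture 3, LIN28B being the exception, and the 7 had sums of 459 to 922 FPKM over control and 869 to 900.3 FPKM over RBMX total libraries. The keratin gene KRT8 was at 151, 146 and 68.0 FPKM in total RNA of control cultures 1 to 3.

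Polysomal RNA of RBMX culture 2 departed in another way. There 7 genes lay over 0.5 log2 units below the other 2 cultures, namely SNRPG, SF3B6, LSM5, LSM3, LSM2, SNRPD2 and SNRPB2. SNRPG, the smallest of the Sm proteins, had 97.3, 45.8 and 87.4 FPKM in polysomal RNA of RBMX cultures 1 to 3. MALAT1, a nuclear RNA, was at 64.2 FPKM in that library and between 8.64 and 29.8 FPKM in the other 11. NEAT1 was at 76.6 FPKM there and between 47.8 and 114 FPKM in the other polysomal libraries.

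These departures ran with the length of the coding sequence. Across the 44 genes, the Spearman correlation between coding length and the departure of a library was −0.60 for total and −0.69 for polysomal RNA of control culture 3, and 0.86 for polysomal RNA of RBMX culture 2. Over 12499 genes with a coding length the same values were −0.34, −0.41 and 0.51. The correlation with the GC content of the transcript was −0.51, −0.26 and 0.34 over the 44 genes, and −0.16, 0.22 and 0.46 over the 12499. Such correlations were not particular to these libraries. In control libraries 1 and 2 those with coding length lay between 0.49 and 0.69 over the 44 genes. They were 0.80, −0.05 and −0.64 in RBMX total libraries 1 to 3 and −0.53 and −0.84 in RBMX polysomal libraries 1 and 3. In RBMX total RNA none of the 44 genes departed by over 0.5 log2 units. The correlations are across genes within a library, and genes are not independent replicates. Short coding sequences here belong to the Sm, Lsm and small SF3b proteins and long ones to SF3a, large SF3b and PRPF proteins, so length and class cannot be told apart.

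**Figure D2:**
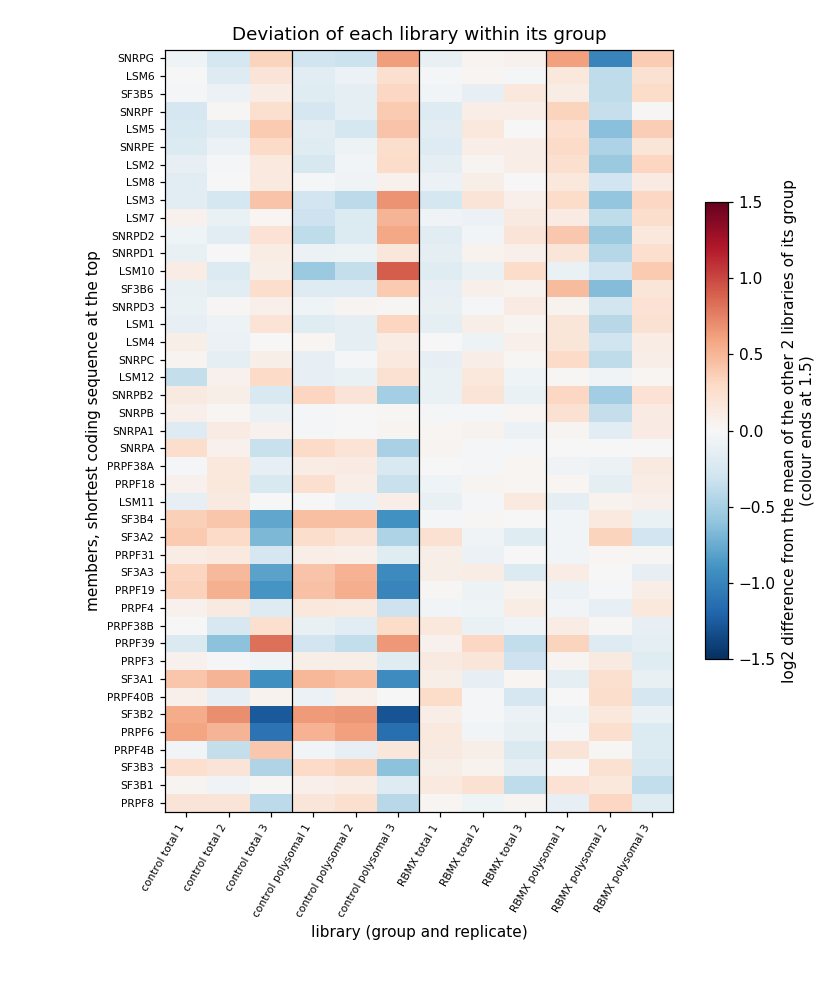
Difference of each library from the mean of the other 2 of its group in log2(FPKM + 1), for 43 of the 44 genes ordered by coding length with the shortest at the top. Control libraries 3 are blue for many long genes and red for many short ones, and RBMX polysomal library 2 is blue for short genes.

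The first comparison asked how the core spliceosome genes differed in total RNA when RBMX was overexpressed. No member passed the test, which was limma on log2(FPKM + 1) with Benjamini-Hochberg adjustment at 0.05, and 0.164% of all genes did. Values were nonetheless higher with RBMX for 36 of the 44 genes, with a median log2 fold change of 0.11 against 0 over all genes tested. The split moved with the scale. On library sums without small RNA genes 31 were higher and 13 lower, with a median of 0.07 against −0.03, and after quantile normalization 26 were higher and 18 lower, with 0.05 against −0.03. At an unadjusted p under 0.05 there were 4 members, beside 18.8% of all genes. The groups did not overlap for 11 members, 10 higher and 1 lower, beside 27.3% of all genes (11.9% higher and 15.4% lower). With 3 libraries against 3, the smallest two-sided exact permutation p is 0.1.

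PRPF3, whose protein binds the U4/U6 duplex, differed most among the members whose groups did not overlap. It had 21.6, 20.8 and 20.4 FPKM in control and 31.6, 32.4 and 25.6 FPKM in RBMX total RNA. Each RBMX library was above each control library, and culture 3 was the lowest of the RBMX libraries. The log2 fold change was 0.49 (SE 0.10, adjusted p = 0.17 by limma). Without RBMX total library 3 it was 0.59 and passed the adjusted test, at 0.0335 by limma. In that fit 1.21% of all genes passed, against 0.164% with all libraries.

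PRPF31, a U4/U6 protein mutated in retinitis pigmentosa, had 88.0, 89.8 and 74.3 FPKM in control and 103, 95.1 and 98.7 FPKM in RBMX total RNA. The groups did not overlap, with a log2 fold change of 0.24 (SE 0.09, adjusted p = 0.25 by limma), or 0.15 without control culture 3. PRPF4, the U4/U6 partner of PRPF3, also kept the groups apart, and all 5 tri-snRNP genes had higher values with RBMX, with a median of 0.24. Exons of PRPF31 overlap those of TFPT on the other strand, and exons of PRPF4 those of CDC26, in the GENCODE annotation. No strand setting is known for these libraries, so reads of such pairs cannot be told apart.

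The SF3a and SF3b genes also had higher values with RBMX, 9 of 9, but here control culture 3 weighed on the result. SF3B4, which contacts RNA upstream of the branch site, had 64.7, 66.5 and 37.7 FPKM in control and 69.5, 70.6 and 69.8 FPKM in RBMX total RNA. The gap to the first 2 control cultures was small beside the gap to the third. SF3B3 had 26.8, 26.0 and 19.1 FPKM against 30.3, 29.9 and 27.2. Without control culture 3 the log2 fold change fell from 0.35 to 0.09 for SF3B4 and from 0.29 to 0.14 for SF3B3. The median log2 fold change was 0.14 in place of 0.37 for SF3a and 0.10 in place of 0.26 for SF3b, with 7 of the 9 genes then higher, and the median of the tri-snRNP genes was 0.15.

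The remaining classes had smaller medians over all libraries. The 4 U1 and U2 genes had a median of 0.15 and the 8 other PRPF genes 0.14, each with every member above 0. PRPF40B, a homologue of a yeast U1 protein, had 3.88, 3.45 and 3.84 FPKM in control and 5.30, 4.50 and 3.92 FPKM in RBMX total RNA. Exons of PRPF40B overlap those of FAM186B and FMNL3 on the other strand over 4602 bases, so reads may be shared. The Sm ring had 6 genes higher and 1 lower with a median of 0.08, which became −0.04, with 6 of 7 lower, after quantile normalization. The Lsm ring had 3 genes higher and 5 lower with a median of −0.07. Without control culture 3 this order of the classes was lost. The Sm ring then had 7 of 7 genes higher with a median of 0.15, the other PRPF genes 6 of 8 with 0.15, the U1 and U2 genes 4 of 4 with 0.11, and the Lsm ring 4 of 8 with −0.01. LSM8 was the 1 gene with lower, non-overlapping values, at 8.56, 9.29 and 10.0 FPKM in control and 7.61, 8.32 and 8.0 in RBMX cells.

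Without control total library 3 the groups did not overlap for 20 members, beside 47.0% of all genes. The library sum without small RNA genes as the scale gave 7 members, 4 higher and 3 lower, beside 28.6% of all genes. Quantile normalization gave 10, of which 6 were higher and 4 lower, beside 27.9%.

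In polysomal RNA the same comparison again gave no member past the adjusted limma test, where 0.0477% of all genes passed. At an unadjusted p under 0.05 there were 3 members, beside 11.7% of all genes. The groups did not overlap for 11 members, 7 higher and 4 lower, beside 22.5% of all genes (10% higher and 12.5% lower). The members were divided, 24 higher and 20 lower, with a median log2 fold change of 0.04. Without RBMX polysomal library 3 the groups did not overlap for 17 members, beside 40.2% of all genes, and without control library 3 and RBMX library 2 for 24, beside 56.5% of all genes. The libraries of the 2 fractions were taken to come from the same cultures.

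The classes took different directions in polysomal RNA. All 8 Lsm ring genes had lower values with RBMX, with a median of −0.21, and 6 of 7 Sm ring genes did, with a median of −0.15. The 5 tri-snRNP genes, 3 SF3a genes and 8 other PRPF genes were all higher, with medians of 0.27, 0.39 and 0.07. Without control library 3 and RBMX library 2 the Sm ring turned, with 6 of 7 genes higher and a median of 0.09. The other medians kept their sign and were smaller. They were −0.02 for the Lsm ring, with 5 of 8 genes lower, 0.14 for the tri-snRNP, with 3 of 5 higher, 0.12 for SF3a, with 2 of 3 higher, and 0.04 for the other PRPF genes, with 5 of 8 higher.

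LSM3 had the largest difference among members whose groups did not overlap. It had 235, 223 and 366 FPKM in control and 191, 128 and 193 FPKM in RBMX polysomal RNA, so that every RBMX library was lower and control culture 3 stood high. The log2 fold change was −0.67 (SE 0.27, adjusted p = 0.42 by limma). Without control library 3 it was −0.45, and without that library and RBMX library 2 it was −0.25. In total RNA the LSM3 groups overlapped, with a log2 fold change of −0.05.

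SF3A3, SF3B4 and SF3A2 had values higher with RBMX by 0.46, 0.45 and 0.39 log2 units in polysomal RNA, and for all 3 the lowest control library was that of culture 3. Without that library the differences were 0.14, 0.15 and 0.24. SF3A3 had 65.1, 68.2 and 34.0 FPKM in control and 77.5, 73.8 and 69.2 FPKM in RBMX cells. PRPF3 was again higher in every RBMX library, at 27.7, 29.0 and 24.8 FPKM against 22.1, 22.1 and 19.4. Its log2 fold change was 0.34 (SE 0.09, adjusted p = 0.40 by limma), and without any 1 library, or under any other setting tried, it stayed between 0.24 and 0.40.

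SNRPA, SF3A2 and PRPF31 are known protein interactors of RBMX. SNRPA, the U1 protein that binds a stem loop of U1 RNA, had 112, 102 and 85.0 FPKM in control and 119, 115 and 115 FPKM in RBMX total RNA. Its log2 fold change was 0.23 (SE 0.11) in total and 0.22 (SE 0.15) in polysomal RNA, and 0.12 and 0.06 without control culture 3. SF3A2 had 79.3, 75.6 and 48.2 FPKM in control against 95.3, 83.6 and 78.8 with RBMX in total RNA, where the groups overlapped. In polysomal RNA it had 77.6, 75.3 and 55.4 against 88.3, 106 and 78.7 FPKM, without overlap. The SF3A2 log2 fold changes were 0.37 (SE 0.21) and 0.39 (SE 0.18), and 0.14 and 0.24 without control culture 3. PRPF31 in polysomal RNA had 94.7, 93.9 and 83.2 against 102, 106 and 105 FPKM, with a log2 fold change of 0.20 (SE 0.08). None of these passed the adjusted limma test.

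**Figure D3:**
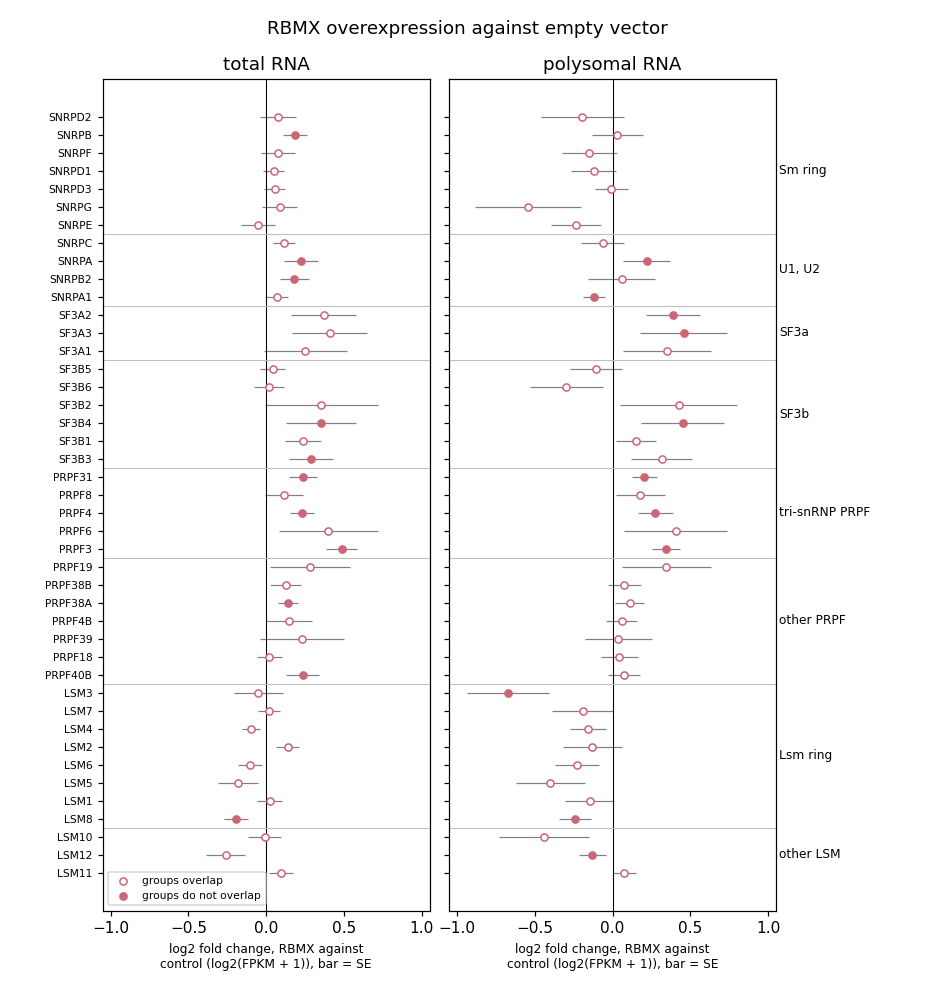
Log2 fold change of RBMX against control for 43 of the 44 tested genes in total (left) and polysomal RNA (right), with the standard error as bar. Filled points mark genes whose 2 groups do not overlap, which were 11 in each panel. The Lsm ring genes all lie left of 0 in polysomal RNA.

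The test of whether the RBMX difference itself changed between fractions found no member at an adjusted p of 0.05 by limma, where 0.0204% of all genes passed. None had an unadjusted p under 0.05, beside 0.6% of all genes. That fit did not pair the libraries of a culture. With the culture as a block 1 member had an unadjusted p under 0.05, beside 2.15% of all genes, and none passed the adjusted limma test. The median change of the RBMX difference between fractions was −0.09 over the 44 genes. All 7 Sm ring and all 8 Lsm ring genes lay below 0, with medians of −0.19 and −0.19. Without the libraries set apart, 6 of the 8 Lsm ring genes lay above 0, with a median of 0.02, and 3 of the 7 Sm ring genes did, with a median of −0.01. LSM3 had −0.62 (SE 0.32) and LSM10 −0.43 (SE 0.33), which became −0.35 and −0.06 without those libraries.

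The second question was how far each mRNA was represented on polysomes against total RNA. In control cells no member passed the adjusted limma test, where 0.0818% of all genes passed, and none had an unadjusted p under 0.05, beside 8.04% of all genes. The groups did not overlap for 2 members, SNRPD3 and SNRPB, both higher on polysomes, beside 14.9% of all genes (7.63% higher and 7.31% lower). SNRPD3, an Sm protein, had 119, 126 and 129.5 FPKM in total and 134, 141 and 139 FPKM in polysomal RNA, a log2 fold change of 0.15 (SE 0.06). SNRPB had 655, 640.0 and 604 FPKM in total and 671, 681 and 686 in polysomal RNA, a log2 fold change of 0.10 (SE 0.09). The SNRPB value was 0.06 without control culture 3, 0.20 on library sums without small RNA genes and 0.42 after quantile normalization.

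Control culture 3 widened the spread here. Without both of its libraries the groups did not overlap for 28 members, beside 59.1% of all genes, and 15 members had an unadjusted p under 0.05, beside 25.6%. Without polysomal library 3 alone 25 members did not overlap, beside 48.8% of all genes. Without total library 1 or total library 3 there were 5 without overlap, beside 22.1% and 24.3%. With the culture as a block, each polysomal library is set against the total library of the same number. In that fit 10 members had an unadjusted p under 0.05, beside 21% of all genes, and none passed the adjusted limma test.

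In RBMX cells LSM10 passed the adjusted test and was lower on polysomes, as the only member among the 1.34% of all genes that passed. It had 61.1, 63.6 and 75.8 FPKM in total and 29.3, 26.9 and 37.1 FPKM in polysomal RNA, so that each polysomal library lay well below each total library. The log2 fold change was −1.09 (SE 0.14, adjusted p = 0.0440 by limma). With the culture as a block the adjusted p was 0.115, and leaving out any 1 of the 6 libraries also ended the call, with log2 fold changes between −1.22 and −0.99. In control cells LSM10 had 70.3, 60.9 and 69.9 FPKM in total and 32.4, 35.6 and 64.7 FPKM in polysomal RNA, a log2 fold change of −0.65 (SE 0.27, adjusted p = 0.63 by limma). Control cultures 1 and 2 thus had a difference of the same order as RBMX cells, and culture 3 did not. LSM10 lies at chr1:36391238-36397892 on the minus strand (GRCh38), and no other annotated exon overlaps it there.

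Counting LSM10, 12 members had an unadjusted p under 0.05 in RBMX cells, beside 23% of all genes. The groups did not overlap for 15 members, 5 higher and 10 lower, beside 30.8% of all genes (14.6% higher and 16.2% lower). The median over the 44 was −0.08. With the library sum without small RNA genes as the scale, the median over all genes was 0.12, and the median over the 44 was 0.049, still below that of all genes. After quantile normalization 22 members were higher and 22 lower. Without both libraries of RBMX culture 2 the median over the 44 was −0.02, with 20 higher and 24 lower.

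LSM3 had 280.1, 347 and 329 FPKM in total and 191, 128 and 193 FPKM in polysomal RNA of RBMX cells, a log2 fold change of −0.92 (SE 0.19, adjusted p = 0.10 by limma). It passed at 0.0389 when small RNA genes were left out. SNRPG had 115, 123 and 125 FPKM in total against 97.3, 45.8 and 87.4, a log2 fold change of −0.72 (SE 0.29). LSM5 had 51.2, 59.4 and 55.2 FPKM against 43.2, 28.5 and 45.6, a log2 fold change of −0.51 (SE 0.19).

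For LSM3, SNRPG and LSM5 alike, culture 2 was the lowest polysomal library. Without it the log2 fold changes of LSM3, SNRPG and LSM5 were −0.72, −0.39 and −0.31. Annotated pseudogenes number 20 for SNRPG and 4 for LSM3, and exons of LSM3 overlap those of XPC on the other strand, so reads may be shared. PRPF39 had 27.2, 30.6 and 22.2 FPKM in total and 20.1, 15.5 and 15.8 FPKM in polysomal RNA, a log2 fold change of −0.60 (SE 0.15). PRPF39 exons overlap those of FKBP3 on the other strand.

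The fractions can also be set against each other within each culture. In all 3 control cultures 11 of the 44 genes were higher and 10 lower on polysomes, beside 24.2% and 22% of all genes. In all 3 RBMX cultures 8 were higher and 14 lower, beside 28.2% and 27.2%. In all 6 cultures, 8 of the 44 genes were lower on polysomes, beside 16.5% of all genes, and 5 were higher, beside 16% of all genes. The 8 were LSM1, LSM3, LSM5, LSM6, LSM10, LSM12, PRPF39 and SNRPA, and the 5 were SF3A1, SF3B2, PRPF6, PRPF8 and PRPF19. For PRPF39 the differences were −0.46, −0.24 and −0.52 log2 units in control cultures and −0.42, −0.93 and −0.46 in RBMX cultures. For PRPF8, the large protein at the catalytic centre of the spliceosome, they were 0.19, 0.22 and 0.18 in control and 0.16, 0.51 and 0.11 in RBMX cultures.

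LSM10 differed by −1.09, −0.76 and −0.11 log2 units in control cultures and by −1.03, −1.21 and −1.01 in RBMX cultures. Its sign held in every culture, whereas its size did not in control culture 3. On the scale of library sums without small RNA genes, 6 members were lower in all cultures, SNRPA and LSM6 no longer among them, and 13 were higher, beside 7.75% and 32.2% of all genes.

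**Figure D4:**
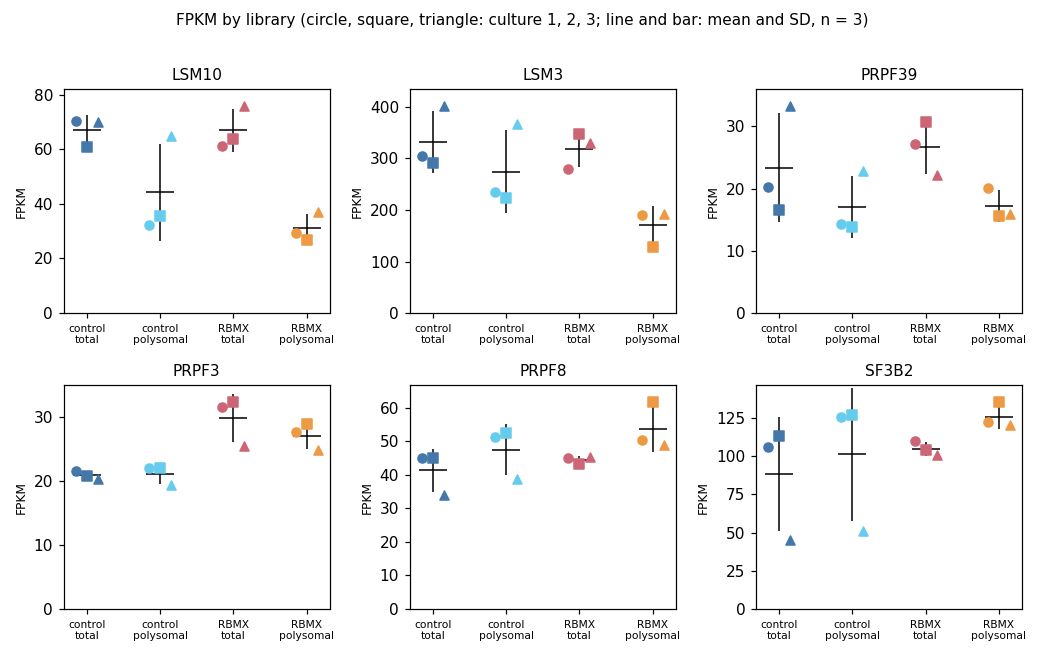
FPKM in each library for LSM10, LSM3, PRPF39, PRPF3, PRPF8 and SF3B2, with the mean and SD of each group (n = 3) and the culture shown by the marker. LSM10 lies between 26.9 and 37.1 FPKM in polysomal RNA apart from control culture 3 at 64.7, and SF3B2 is low in both libraries of control culture 3.

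Genes with long coding sequences tended to be better represented on polysomes. Across the 44 genes, the Spearman correlation between coding length and the difference of polysomal from total RNA was 0.43 in control cells (mean of 3 cultures) and 0.69 in RBMX cells, and over 12499 genes it was 0.24 and 0.46. It was not alike in every culture. The correlation over the 44 genes was 0.58, 0.60 and −0.03 in control cultures 1 to 3 and 0.13, 0.77 and 0.56 in RBMX cultures 1 to 3. The mean over control cultures had a correlation of 0.23 without culture 1, 0.29 without culture 2 and 0.64 without culture 3. The mean over RBMX cultures had 0.76 without culture 1, 0.39 without culture 2 and 0.70 without culture 3, and over all 12499 genes it had 0.29 without culture 2. In RBMX culture 2 all 18 genes with a coding length under 500 bases were lower on polysomes, with a median difference of −0.55 log2 units, while in RBMX culture 1 it was 7 of 18, with a median of 0.04. The 20 genes of 1000 bases or more had medians between −0.02 and 0.09 over the 6 cultures.

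**Figure D5:**
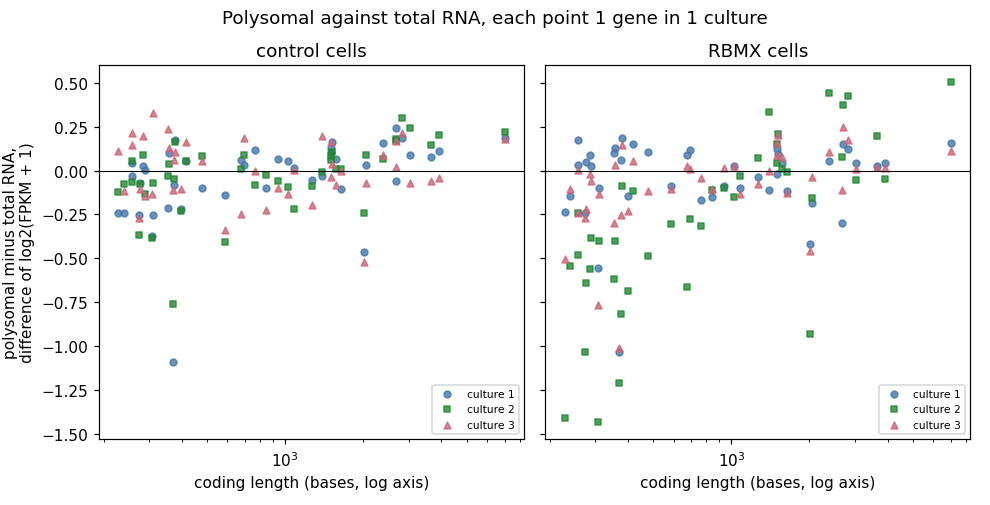
Difference of polysomal from total RNA in log2(FPKM + 1) against coding length (log axis) for 43 of the 44 genes in each culture of control (left) and RBMX cells (right). Short genes of RBMX culture 2 reach −1.43, and control culture 3 has a correlation of −0.03.

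Other genes of the pathway were read in the same fits. Of 34 further core spliceosome genes, among them the U5 proteins EFTUD2 and SNRNP200, none passed the adjusted limma test in any of the 5 comparisons. At an unadjusted p under 0.05 there were 3 for RBMX in total RNA, beside 18.8% of all genes, and 4 in polysomal RNA, beside 11.7%. For polysomes there were 1 in control cells, beside 8.04% of all genes, and 12 in RBMX cells, beside 23%. For the difference of the RBMX effect there were 0, beside 0.6%. With RBMX, 32 of the 34 had higher values in total and 26 in polysomal RNA, with medians of 0.18 and 0.20. Of the 34, 25 were lowest among control libraries in culture 3 in total RNA and 27 in polysomal RNA. Without control culture 3, 27 had higher values in total RNA with a median of 0.08, and 17 in polysomal RNA with a median of 0.0039. Of 8 proteins of the minor spliceosome, which removes a rare class of introns, 1 passed in 1 comparison, where 1.34% of all genes did. RNPC3, a protein of the U11/U12 particle, fell on polysomes in RBMX cells, from 7.42, 7.71 and 7.46 FPKM in total to 5.68, 4.79 and 5.14 FPKM in polysomal RNA. Its log2 fold change was −0.46 (SE 0.07, adjusted p = 0.0493 by limma). With the culture as a block the adjusted p was 0.145, and the call was also lost without any 1 of the 6 libraries. It held with a minimum mean of 1 FPKM, with small RNA genes left out and without trend, at 0.0208 to 0.0497 by limma. Every other setting tried ended the call, at 0.0528 to 0.319 by limma. In control cells RNPC3 had a log2 fold change of −0.43 (SE 0.16), without overlap of the groups.

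Of 16 genes that assemble Sm rings, the SMN complex and the methylosome, 15 were tested and none passed the adjusted limma test in any of the 5 comparisons. There were 1, 0, 0, 1 and 0 at an unadjusted p under 0.05 in the order above. The shares of all genes were 18.8%, 11.7%, 8.04%, 23% and 0.6%. The medians of the 15 genes lay between −0.06 and 0.08. SMN1 and SMN2 are near-identical copies, so the division of reads between them is uncertain.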

How the data were processed

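HEK293 cells with the empty vector or RBMX were profiled as total and polysomal RNA, 3 cultures per vector, by unpooled TruSeq libraries read at 2 × 100 bases. The authors deposited FPKM values per gene. The submitters' processing notes name CASAVA 1.8, TopHat2 2.0.13, Cufflinks 2.2.1, Cuffnorm and hg19 without saying which did what, while the published methods describe another processing. Depth is unknown from FPKM alone, so its part in the precision cannot be given, and each group has 3 libraries. Small RNA genes took 40.6% to 72.9% of the FPKM sums, which lay between 817528 and 1903320, and replicates of a group had Spearman correlations of 0.976 to 0.998.

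Genes with a mean of at least 0.5 FPKM over the 12 libraries were fitted in R 4.3.3 with limma 3.58.1 (lmFit, eBayes with trend) on log2(FPKM + 1), with Benjamini-Hochberg adjustment over all 14676 genes. A fold change is on that scale, which understates the change of low genes. The fits were tried on simulated data with independent noise for each gene and library. Those data had no departures that run with coding length and no pairing of cultures, so they cannot show how the fits handle these. Coding length and GC came from GENCODE release 29 (GRCh38), used in place of protein lengths, and 0 columns stayed unmatched to a sample. The rule for members, though it uses symbols only, and the lists were set with earlier results of these data known. The genes with values by library were RBMX, members past the test, up to 5 members per comparison with the largest change and no overlap, the highest and lowest of each class, 3 interactors of RBMX, and members at 0 or under the filter. Other genes named with values were chosen after their values were seen. SNRPN, SNRPD2P2 and all genes under the filter were not tested. The values of 1 tested member are not reported here by name or drawn, and it is counted in the totals. The published methods seed more than 1 dish and do not tie a dish to a fraction. Total and polysomal libraries of the same number were taken as paired, since total RNA was pooled from the gradient's fractions. Their deviations from the group means correlated at 0.605, 0.686 and 0.835 in control and at 0.222, 0.0198 and 0.654 in RBMX cultures. Alternatives were other pseudocounts, filters and scalings, a fit without trend, a replicate block, all libraries in 1 fit, and each library left out. A loess correction (span 0.3) on GC and transcript length and a fit without the libraries set apart were added after the data were seen. So were the lists without control culture 3 and the length correlation without each RBMX culture. RBMX culture 3, where IFIT1 was lowest among RBMX cultures, was not among the libraries set apart. Without its library, 1.21% of all genes passed for the vectors in total RNA and 0.859% in polysomal RNA. With all libraries these shares were 0.164% and 0.0477%. Analyses outside limma used Python.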

Additional observations from a re-analysis of the deposited data

How the results depend on the processing

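For the vectors in total RNA, members whose groups did not overlap numbered 7 with library sums without small RNA genes (28.6% of all genes) and 20 without the libraries set apart (47.0%), and 13 to 20 with 1 library left out (30.4% to 47.0%). The range of members called was then 0 to 1, beside 0.129% to 1.21% of all genes, and that of the median 0.09 to 0.13. In polysomal RNA the groups did not overlap for 24 members without the libraries set apart (56.5% of all genes) and for 12 to 17 with 1 left out (26.9% to 45.4%), with 0 called and a median of −0.04 to 0.07. Between fractions of control cells there were 6 such members after quantile normalization (15.1% of all genes), 6 with library sums without small RNA genes (20.3%), 28 without the libraries set apart (59.1%), and 3 to 25 with 1 left out (16.9% to 48.8%), with 0 called and a median of −0.05 to 0.04. Between fractions of RBMX cells 0 members were called without a filter, after quantile normalization, with library sums without small RNA genes, with the replicate block, in the fit of all 12 libraries, with the GC and length correction plus the replicate block, without the libraries set apart, and with any 1 library left out. There were 2 with small RNA genes left out, beside 3.02% of all genes. With 1 library left out the median was −0.12 to −0.04 and 16 to 22 members did not overlap (33.5% to 45.9% of all genes). The median was 0.049 with library sums without small RNA genes and 0.00073 with the GC and length correction, with or without the replicate block. The median of the difference of the RBMX effect lay between −0.15 and −0.04 with 1 library left out, with 0 called. With 1 culture left out, the Spearman correlation with coding length lay between 0.23 and 0.64 in control and between 0.39 and 0.76 in RBMX cells. The causes were not tested, other than the fewer libraries in fits that leave some out. The replicate block changed no other member's call. The labels do not say whether replicates of the same number were handled together across vectors. Their deviations correlated between −0.17 and 0.34, which cannot settle it. With the replicate block 0 members were called in either fraction.

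With all 3 libraries per group and no counts, no member was called for the vectors or between fractions of control cells. In RBMX cells LSM10 was called between fractions, and 0 members with the replicate block. At an unadjusted p under 0.05 by limma there were 4 members for the vectors in total RNA, beside 18.8% of all genes. In polysomal RNA there were 3, beside 11.7%. Between fractions there were 0 in control cells, beside 8.04%, and 12 in RBMX cells, beside 23%. How small a difference these fits detect was not tested. Which libraries are in the fit moved the counts without overlap, in part because fewer libraries overlap less often, so these counts are read against the share of all genes under the same setting.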
